A study of Homo sapiens with 6 samples.

Results

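Kinins and plasmin are made in blood plasma by short chains of proteases whose precursors come mostly from the liver. The 9 genes described here encode 9 of these proteins: kininogen (KNG1), plasma prekallikrein (KLKB1), factor XII (F12), plasminogen (PLG), the urokinase and tissue types of plasminogen activator (PLAU and PLAT), the urokinase receptor (PLAUR), alpha-2-antiplasmin (SERPINF2) and carboxypeptidase B2 (CPB2). They are 9 of the 23368 genes in the deposited table. They were chosen by name after results of the comparison described here were known, so their values in this comparison are a description and carry no test.

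The RNA came from HepG2, an established human hepatocellular cancer line. In shCHROME (libraries a, b and c, labelled SH3) the cells had been transduced with a pLKO lentivirus whose hairpin targets all variants of CHROME, a long noncoding RNA studied for its part in cholesterol balance. In EV (libraries a, b and c) the virus carried a non-targeting hairpin. Both groups therefore share the line, the vector and the transduction. The level of CHROME was not analysed here, and these results carry no measure of the knockdown. Whether the 3 libraries of a group stem from separate cultures is not in the labels. All p-values here reflect how these libraries vary, which may be technical variation.

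Recovered reads per library ran from 29477352 to 33911426 in shCHROME and from 29188213 to 35429420 in EV. All 9 markers of hepatocytes examined were detected, HNF4A and APOB among them. The endothelial marker TEK, the fibroblast marker DCN and the erythroid marker HBB had no read in any library, each the 1 marker of its list at 0. Other markers of those lists were detected. Over the libraries of shCHROME and of EV, VWF had 2725 and 3074 reads, ACTA2 4191 and 3885, and CD68 988 and 1044. The summed level of the hepatocyte markers was 1123104 to 1320643 normalized counts (reads divided by the authors' size factor of the library) in shCHROME libraries and 1405357 to 1527564 in EV libraries. ALB (means of 580030 in shCHROME and 722799 in EV) and APOB (456396 and 466633) had the highest counts in that sum. Of the 9 markers, 6 were called lower and 0 higher (limma, adjusted p under 0.05), against 6.87% and 3.64% of all genes tested. The other 3, APOB, HNF4A and FOXA2, were not called. The part of these markers in the results below was not tested. In bulk RNA, fewer cells of a kind and less RNA per cell cannot be told apart.

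In the contact system, factor XII and plasma prekallikrein activate each other on a surface, and kallikrein then cuts bradykinin, a peptide that widens vessels and makes them leak, out of kininogen. In fibrinolysis, the activators PLAU and PLAT turn plasminogen into plasmin, the protease that dissolves fibrin, and PLAUR holds urokinase at the cell surface. Alpha-2-antiplasmin inhibits plasmin, and carboxypeptidase B2, once activated by thrombin, trims from fibrin the lysines to which plasminogen binds. Kallikrein can also activate urokinase and plasmin can activate factor XII, which ties both systems together.

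KNG1 and PLG, the precursors from which bradykinin and plasmin are made, were the members with the largest differences, and their promoters are printed for that reason. RefSeq promoter windows of 300 bases (250 before and 50 from the start site, build GRCh38.p14) were found for 7 of the 9 members. Capitals mark matches to 3 short motifs of liver-enriched factors, searched on both strands: CAAAGTC for HNF4, TGTTTAC for FOXA and TTGCNNAA for C/EBP. No match overlapped another.

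KNG1, chr3:186717109-186717408, plus strand: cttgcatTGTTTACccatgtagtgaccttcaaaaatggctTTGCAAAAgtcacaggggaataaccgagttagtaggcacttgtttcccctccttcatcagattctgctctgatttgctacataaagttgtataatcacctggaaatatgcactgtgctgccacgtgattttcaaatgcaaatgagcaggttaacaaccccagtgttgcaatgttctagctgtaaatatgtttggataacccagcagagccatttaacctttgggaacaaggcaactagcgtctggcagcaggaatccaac

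PLG, chr6:160701943-160702242, plus strand: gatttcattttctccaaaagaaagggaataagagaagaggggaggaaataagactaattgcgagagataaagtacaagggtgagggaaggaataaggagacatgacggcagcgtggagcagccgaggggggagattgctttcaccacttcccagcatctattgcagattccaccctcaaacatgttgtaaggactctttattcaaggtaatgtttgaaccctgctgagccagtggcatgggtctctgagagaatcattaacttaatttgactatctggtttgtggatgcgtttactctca

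The KNG1 window held a FOXA match starting at -243 and a C/EBP match starting at -210 from the start site. The PLG window printed above held none of the 3 motifs, so it has no capitals. Another RefSeq window of PLG, starting at base 160701994, also held none. Of 35116 RefSeq windows of this length, 3.42% held the FOXA motif, 10.5% the C/EBP motif and 3.37% the HNF4 motif. The window of KLKB1, a gene whose level was close in both groups, held a match to HNF4 and to C/EBP, and that of F12 held none. The windows of CPB2 and PLAUR, neither of them called, each held a C/EBP match. A window of PLAU held a C/EBP match and another window of PLAU an HNF4 match. The genes of 2 such factors were measured among the hepatocyte markers and did not pass the limma test: HNF4A had a log2 fold change of -0.03 and FOXA2 of 0.09. FOXA2 was higher in every shCHROME library than in every EV library, as 13.0% of all genes tested were. No C/EBP gene was among these markers. A match is a description of letters and not a bound site.

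Of the 9 members, 8 passed the filter on low counts and entered the fit across 14598 genes, and PLAU did not. KNG1 and PLG were called lower by limma (2 members, against 6.87% of all genes tested) and 0 members were called higher (against 3.64% of all genes). Without adjustment, a p under 0.05 was reached by 4 members below EV, SERPINF2 and CPB2 being the others, and by 1 above it, PLAT. The share of all genes at that unadjusted threshold is not given here, so these unadjusted counts have no background. edgeR and DESeq2 on recovered reads also called KNG1 and PLG lower and 0 members higher. In normalized counts the groups did not overlap in 3 members, KNG1, PLG and SERPINF2, all lower in shCHROME, where 15.0% of all genes tested did so in that direction. No member was higher in every shCHROME library than in every EV library, as 13.0% of genes were. Since the members were picked with this contrast known, nothing is read from these counts. The authors' deposited table, which has its own smaller fold changes, gave KNG1 a log2 fold change of -1.26 and PLG of -0.78, and these were also the only members below an adjusted p of 0.05 there, where 6.02% of genes were called lower.

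**Figure D1:**
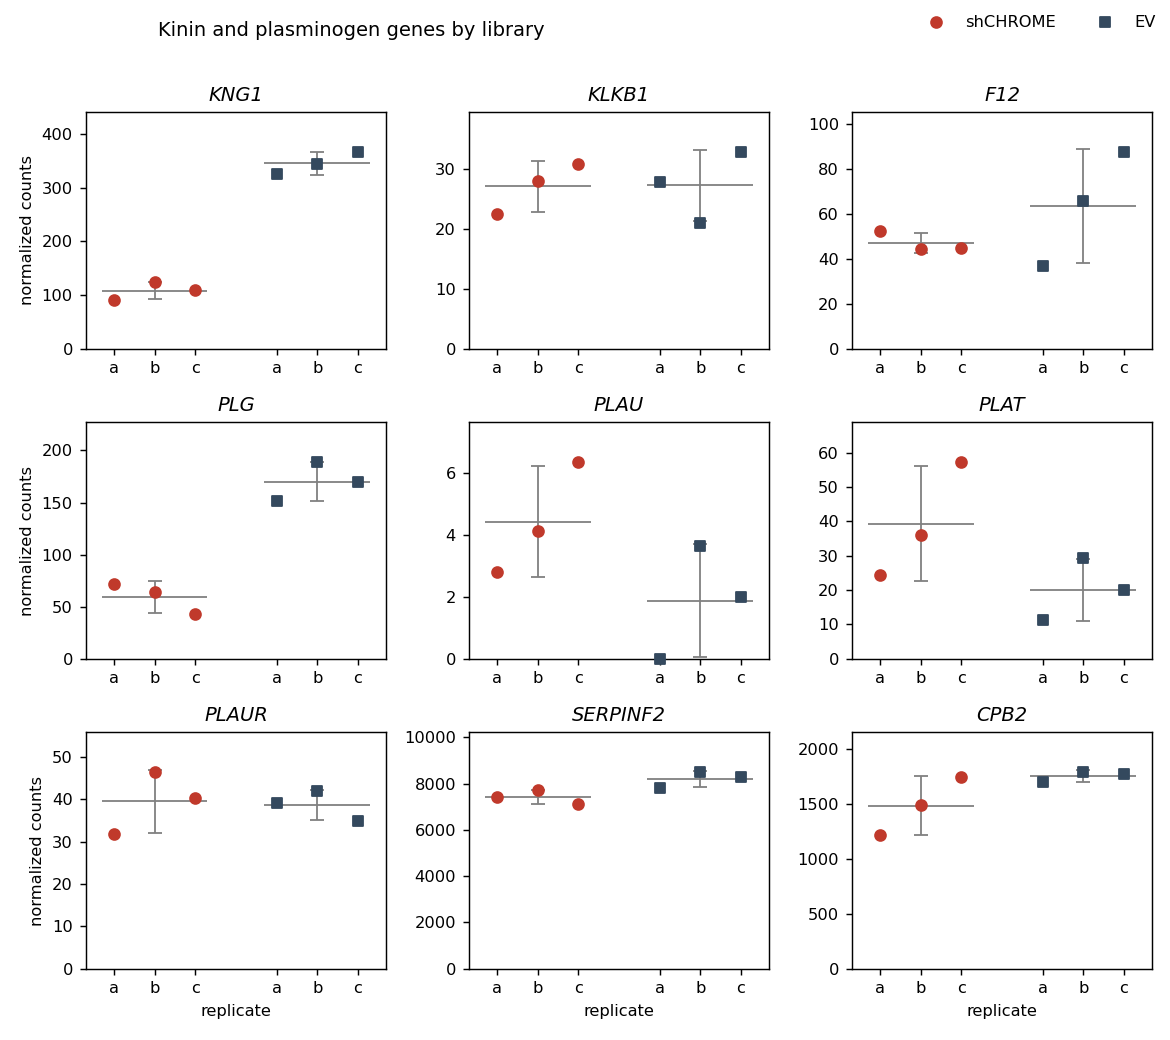
Normalized counts (y axis, from 0, one scale per gene) of each member in the 3 shCHROME libraries (red circles) and the 3 EV libraries (dark squares). Horizontal lines are group means and bars the SD (n = 3). The groups are clear of each other for KNG1, PLG and, narrowly, SERPINF2, and overlap in the other 6 genes.

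Among the genes of the kinin branch, KNG1 was lower in every shCHROME library while the levels of KLKB1 and F12, the proteases upstream of it, overlapped between groups. KNG1 had 91.5, 124.1 and 109.5 normalized counts in shCHROME a, b and c, against 325.6, 343.7 and 367.4 in EV a, b and c. Every shCHROME library was far below the lowest EV library, and the group means differed 3.19-fold. The log2 fold change was -1.67 ± 0.14 (SE, 3 libraries per group), and it ran from -1.78 to -1.56 over 16 alternative analyses. The table counts reads per gene, so the high and low molecular weight kininogens, both spliced from KNG1, are summed in these values.

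KLKB1, the zymogen that circulates bound to high molecular weight kininogen, had 22.4, 27.9 and 30.8 normalized counts in shCHROME and 27.9, 21.02 and 32.9 in EV. The groups overlapped fully, with a log2 fold change of 0.00 ± 0.29 (SE). This value rests on 80 reads over the shCHROME libraries and 81 over the EV libraries, and its 95% interval of -0.61 to 0.61 leaves room for a change in either direction. F12, whose product starts contact activation, had 52.3, 44.5 and 44.6 normalized counts in shCHROME, against 36.8, 65.8 and 87.6 in EV. The EV libraries spread more widely than the shCHROME ones and enclose them, and the log2 fold change of -0.34 ± 0.27 (SE) was -0.68 without EV replicate a and -0.07 without EV replicate c. Set against KLKB1 per length, KNG1 stood at 2.37, 2.58 and 2.06 times its level in the shCHROME libraries and at 6.77, 9.48 and 6.48 times in the EV libraries, a ratio chosen after the values were seen.

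In the plasminogen branch, the zymogen was lower in every shCHROME library and the activator transcripts were few in both groups. PLG had 71.9, 64.1 and 42.5 normalized counts in shCHROME a, b and c, against 151.6, 189.2 and 169.3 in EV a, b and c. All shCHROME libraries were below all EV libraries, with a log2 fold change of -1.53 ± 0.19 (SE) that ran from -1.68 to -1.31 over the alternatives. Within shCHROME the order of the libraries differed between both genes, since KNG1 was lowest in replicate a and PLG lowest in replicate c. In shCHROME a, b and c, KNG1 had 98, 120 and 103 reads and PLG 77, 62 and 40. With so few reads the order is imprecise, and it was not tested. PLG has close copies with which its reads could be shared: LPA had 4 reads and PLGLA 3 over all 6 libraries, and PLGLB1 and PLGLB2 had none. Reads dropped because they match several copies are not counted in the table, so the level of PLG is uncertain to that extent.

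PLAT had 24.3, 36.2 and 57.4 normalized counts in shCHROME, against 11.1, 29.3 and 19.9 in EV. The means were 39.3 ± 16.8 and 20.1 ± 9.05 (SD, n = 3 each), but shCHROME replicate a lay below EV replicate b. PLAT was not called at a log2 fold change of 0.95 ± 0.36 (SE), it was called higher without shCHROME replicate a (1.24), and the value dropped to 0.60 without EV replicate a and 0.64 without shCHROME replicate c. PLAU was close to the limit of counting, with 3, 4 and 6 reads in shCHROME and 0, 4 and 2 reads in EV. The count of 0 in EV replicate a allows up to 3 reads, or 3.35 normalized counts, which reaches into the shCHROME values. PLAUR had 31.8, 46.5 and 40.4 normalized counts in shCHROME and 39.0, 42.0 and 34.8 in EV, and the groups overlapped with a log2 fold change of 0.02 ± 0.24 (SE).

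The inhibitors of fibrinolysis were the abundant members, and their differences were small. SERPINF2 had 7424, 7701 and 7122 normalized counts in shCHROME, against 7802, 8511 and 8266 in EV. Its groups lay close together without overlapping, and it was not called at a log2 fold change of -0.14 ± 0.06 (SE). CPB2 had 1217, 1489 and 1750 normalized counts in shCHROME, against 1697, 1794 and 1777 in EV. The 3 EV libraries lay close together while shCHROME replicate c lay inside their range, and the log2 fold change of -0.26 ± 0.10 (SE) passed the threshold without shCHROME replicate c (-0.38) and was -0.12 without shCHROME replicate a. Per length, PLG stood at 0.662%, 0.569% and 0.408% of the level of SERPINF2 in the shCHROME libraries and at 1.33%, 1.52% and 1.40% in the EV libraries, a ratio also chosen after the values were seen.

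Levels can be compared between members only per length. In RPKM, recovered reads scaled to exon length and to the library's total, SERPINF2 stood at 101 ± 4.57 in shCHROME and 108 ± 5.01 in EV, and CPB2 at 27.7 ± 5.09 in shCHROME and 31.6 ± 1.03 in EV (SD, n = 3 each). On this scale the SERPINF2 groups overlapped, with libraries from 96.8 to 105.8 in shCHROME and from 102.1 to 111.9 in EV. Members other than SERPINF2 and CPB2 were all below 3 RPKM. KNG1 held place 3 in both groups, at 0.809 ± 0.130 RPKM in shCHROME and 2.49 ± 0.158 in EV. PLG held place 6 in shCHROME, at 0.552 ± 0.140 RPKM, and place 4 in EV, at 1.53 ± 0.172. In shCHROME the library ranges of PLG overlapped those of its neighbours in the order, PLAUR and PLAT, and KNG1 overlapped F12. In EV both KNG1 and PLG were apart from the genes next to them in the order, while F12 overlapped PLAUR and KLKB1 overlapped PLAT. PLAU was last in both groups, at 0.0528 ± 0.0216 RPKM in shCHROME and 0.0216 ± 0.0210 in EV.

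**Figure D2:**
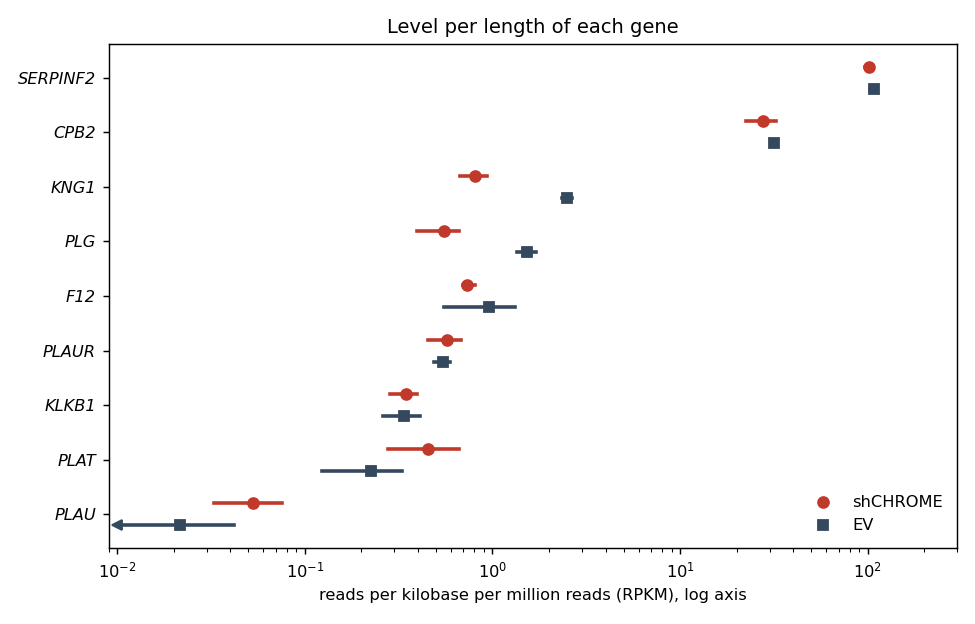
Level per length (RPKM, log axis) of the 9 members in shCHROME (red circles) and EV (dark squares). Markers are means and bars run from the lowest to the highest of 3 libraries, with an arrow where the lowest library is at 0. SERPINF2 and CPB2 stand far above the rest, and KNG1 and PLG are the members whose groups are clearly apart.

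Reads of several members could be shared with other genes, since the sources used here do not say whether counting used strand. In GENCODE release 29, F12 overlaps GRK6, PLAU overlaps C10orf55, and KNG1 and CPB2 each overlap an antisense transcript, all on the opposite strand, while KLKB1 overlaps CYP4V2 and PLAUR overlaps RN7SL368P on its own strand.

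The genes beside the members did not all move with them. KNG1 lies in a cluster on chromosome 3 in which the next gene in the table on one side is HRG, a plasma protein related to kininogen that binds plasminogen and heparin. HRG had 6.54, 4.14 and 1.06 normalized counts in shCHROME, against 23.4, 19.2 and 7.97 in EV. Its groups did not overlap, but with 12 reads over the shCHROME libraries and 50 over the EV libraries it was below the filter on low counts. With no filter beyond 1 read it was tested among 19781 genes and called lower, at a log2 fold change of -1.93 (limma adjusted p = 0.0307), and it was also called lower without shCHROME replicate a and without EV replicate c. On the other side, EIF4A2, a helicase of translation initiation, fell to 14540 ± 857 normalized counts in shCHROME, against 16591 ± 564 in EV (SD, n = 3 each, log2 fold change -0.19, limma adjusted p = 0.0385), a call lost in 9 of 16 alternatives (adjusted p from 0.0204 to 0.142), among them each left-out library except shCHROME replicate c.

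Beside KLKB1, CYP4V2, a fatty acid hydroxylase, rose to 668 ± 37.2 normalized counts in shCHROME, against 537 ± 29.6 in EV (SD, n = 3 each, limma adjusted p = 0.0267). The call did not hold once any of 4 libraries was left out: shCHROME replicate b (adjusted p = 0.0702) or c (0.112), or EV replicate a (0.114) or b (0.0711). Over all its alternatives the adjusted p began at 0.01395. F11, which encodes factor XI, the close relative of prekallikrein that is also carried by kininogen, was not called, with 1438 ± 62.0 normalized counts in shCHROME and 1409 ± 14.7 in EV (limma adjusted p = 0.846). Beside PLG, LPA was near 0 and MAP3K4, a kinase of stress signalling, was not called, with 1792 ± 46.1 normalized counts in shCHROME and 1718 ± 90.0 in EV (limma adjusted p = 0.626).

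**Figure D3:**
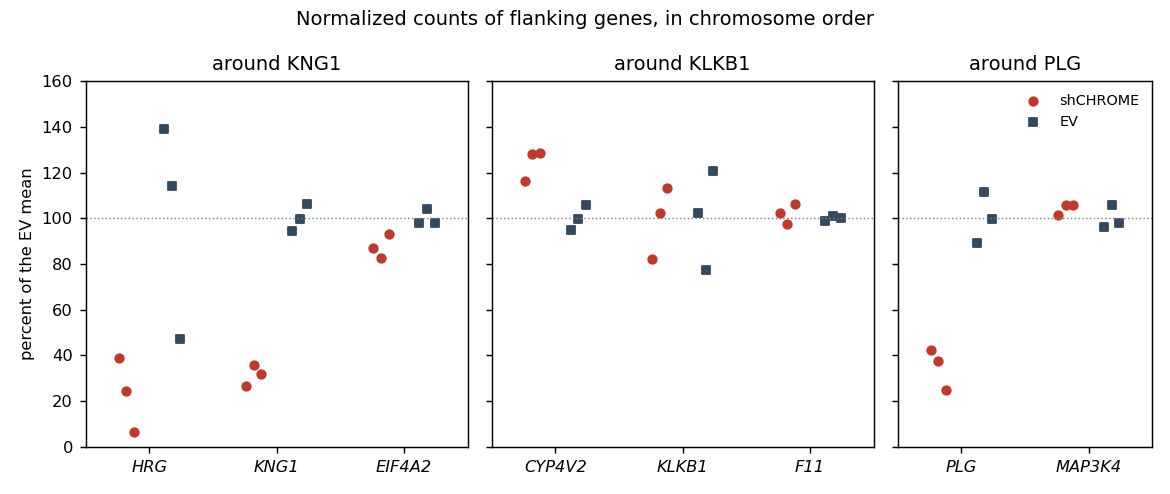
Normalized counts of KNG1, KLKB1 and PLG and of the nearest genes of the table on each side, in chromosome order, as a percentage of the EV mean (y axis). Each point is 1 library, red circles shCHROME and dark squares EV. The 3 shCHROME libraries of KNG1 lie between 26.5% and 35.9%, those of PLG between 25.0% and 42.3%, and those of HRG between 6.31% and 38.8%, while F11 and MAP3K4 lie near 100%. LPA is not drawn, having at most 1 read per library.

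Of 47 further genes of both systems, listed by role with earlier results of these data known, 32 could be tested. The limma test called 4 of them lower and 0 higher and left 28 uncalled (against 6.87% of all genes tested called lower and 3.64% higher). At an unadjusted p under 0.05, 8 were below and 5 above EV. No share of all genes is given for unadjusted counts, here or by role, so nothing is read from them. edgeR called 4 lower and 0 higher, and DESeq2 4 lower and 1 higher, C1QBP. Without shCHROME replicate a limma called 7 lower, and without shCHROME replicate b 1 higher, again C1QBP. The median log2 fold change of the 32 genes was -0.01, against 0.01 over all genes tested. The other 15 of the 47 were below the filter, among them both bradykinin receptors, BDKRB1 and BDKRB2, and 4 (KLK1, the tissue kallikrein, THBD, PLGLB1 and PLGLB2) had no read in any library. HRG aside, none of these 15 had more than 5 reads over all libraries. A count of 0 does not show that a gene is silent, because IRS2 and APOC2, which hepatocytes express, are at 0 in this table as well.

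Of 11 tested genes for kinin breakdown, 1 fell and 0 rose (limma, with 2 below and 1 above EV at an unadjusted p under 0.05, and 1 lower and 0 higher also with edgeR and DESeq2). Of all genes tested, limma called 6.87% lower and 3.64% higher, and nothing is read from the count of this group. DPP4, a membrane peptidase that removes dipeptides from the ends of peptides, had 13556, 12295 and 13935 normalized counts in shCHROME, against 20877, 20470 and 19055 in EV. All shCHROME libraries were lower, with a log2 fold change of -0.60 ± 0.06 (SE, limma adjusted p = 4.11e-06), a call kept in all 16 alternatives. CPD, a carboxypeptidase that can trim kinins, had the highest normalized counts of the uncalled genes in this group, not scaled to length, at a log2 fold change of -0.04 (limma adjusted p = 0.736). The uncalled genes ran from -0.87, for XPNPEP2, to 0.18. XPNPEP2 was lower in every shCHROME library, as 15.0% of all genes tested were, at 28.2 ± 7.67 normalized counts against 52.8 ± 16.7 in EV (SD, n = 3 each). It was not called (limma adjusted p = 0.0541), but was called lower without shCHROME replicate a and without EV replicate a. Its values rest on 85 reads over the shCHROME libraries and 159 over the EV libraries.

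Among contact activation genes PRCP fell, 1 of 3 tested (limma, against 6.87% of all genes tested called lower and 3.64% higher). With 3 genes tested, nothing is read from this count. PRCP encodes prolylcarboxypeptidase, a lysosomal enzyme that can activate prekallikrein bound to kininogen on endothelium. It averaged 1779 ± 39.2 normalized counts in shCHROME and 2176 ± 67.4 in EV (SD, n = 3 each, log2 fold change -0.29, limma adjusted p = 0.0053), with no overlap between groups. C1QBP, a mitochondrial protein that also binds kininogen at cell surfaces, was higher in every shCHROME library, at 4202 ± 225 normalized counts against 3720 ± 28.6 in EV, and was not called (limma adjusted p = 0.0651). It was called in 4 of 16 alternatives (adjusted p from 0.0156 to 0.181), without shCHROME replicate b (0.0273) among them.

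Of the 3 tested inhibitors of plasma or tissue kallikrein or of factor XII, 2 fell and 0 rose (limma, with 3 below and 0 above EV at an unadjusted p under 0.05, SERPINA5 being the other, and 2 lower and 0 higher also with edgeR and DESeq2). Among all genes tested 6.87% were called lower, and 3 genes are too few to set against that share. A2M, the broad protease trap alpha-2-macroglobulin, which takes up kallikrein and plasmin, had 196152, 199221 and 208009 normalized counts in shCHROME, against 298268, 274064 and 293218 in EV. SERPINA4, which encodes kallistatin, an inhibitor of tissue kallikrein, had 888, 1037 and 961 normalized counts in shCHROME, against 1167, 1237 and 1206 in EV. All shCHROME libraries were lower for both genes, with log2 fold changes of -0.52 and -0.33 (limma adjusted p = 6.88e-05 and 0.00977), and both calls were kept in all 16 alternatives. SERPING1, the main inhibitor of plasma kallikrein and activated factor XII, was below the filter in these cells.

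None of the 4 tested inhibitors of plasminogen activation and their cofactor was called by limma, edgeR or DESeq2, and 1 was below and 0 above EV at an unadjusted limma p under 0.05. Of all genes tested, limma called 6.87% lower and 3.64% higher, and 4 genes are too few to set against those shares. Their log2 fold changes ran from -0.218 to 0.665. VTN, the adhesive plasma protein vitronectin, was at a log2 fold change of -0.01 (limma adjusted p = 0.95). SERPINE2, which encodes protease nexin-1, an inhibitor of thrombin and of plasminogen activators, had 1567, 1077 and 1231 normalized counts in shCHROME, against 1453, 1470 and 1531 in EV. The EV libraries lay close together while shCHROME replicate a lay above all of them, and the log2 fold change of -0.22 was not called (limma adjusted p = 0.184). Without shCHROME replicate a it was -0.37 and was called (adjusted p = 0.00366), and over the alternatives the adjusted p reached 0.573.

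None of the 8 tested plasminogen receptors and binders was called by limma, edgeR or DESeq2, and at an unadjusted limma p under 0.05 there were 2 above and 1 below EV. Since limma called 6.87% of all genes tested lower and 3.64% higher, nothing is read from the counts of this group. ENO1, a glycolytic enzyme that also binds plasminogen at the cell surface, was at a log2 fold change of 0.14 (limma adjusted p = 0.12), and was called when library totals set the scaling (adjusted p = 0.027, against up to 0.328 in other alternatives). LRP1, the receptor that clears complexes of plasminogen activators with their inhibitors, was at -0.30 (limma adjusted p = 0.0807), and was called without shCHROME replicate b (0.0309) or EV replicate b (0.00161), with up to 0.35 in other alternatives. The annexin A2 pair that holds plasminogen, ANXA2 and S100A10, was at -0.17 and -0.19 and was not called. Of the kringle relatives, MST1, whose product is the macrophage-stimulating protein, and HGFAC, the activator of hepatocyte growth factor, were not called (log2 fold changes -0.01 and 0.24), nor was F2, which encodes prothrombin (-0.01). For these 3 genes too edgeR and DESeq2 made 0 calls, and HGFAC alone had an unadjusted p under 0.05. With 3 genes, nothing is read from these counts.

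**Figure D4:**
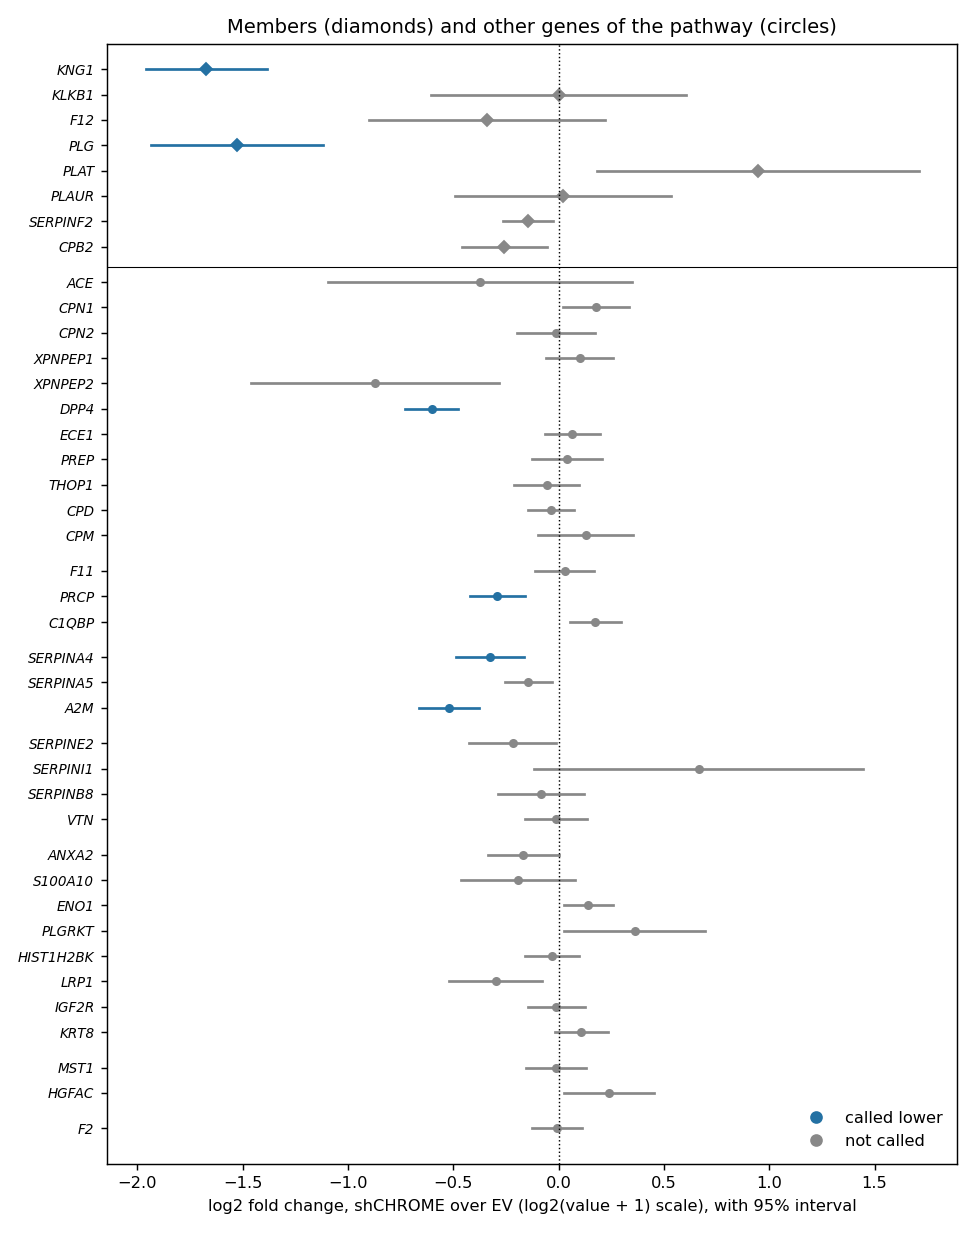
Log2 fold change of shCHROME over EV (x axis, on the log2(value + 1) scale) with its 95% interval for the 8 tested members (diamonds, above the line) and the 32 other tested genes of the pathway (circles, in role groups). Blue marks genes called lower and grey genes not called. KNG1 and PLG lie below -1.5, and no other gene shown lies below -1.

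Among 12325 tested genes with a mean of at least 50 normalized counts, those whose values were most like those of KNG1 over the 6 libraries included BIRC7, an inhibitor of apoptosis, and DIO1, a deiodinase of thyroid hormone, in places 1 and 2. Their root mean square differences from KNG1, in centred log2(value + 1), were 0.148 and 0.167. BIRC7 and DIO1 had log2 fold changes of -1.65 and -1.48. The genes most like PLG were EDN1, which encodes endothelin-1, SLC22A18AS and the glycosyltransferase gene B3GNT3, at 0.232, 0.256 and 0.261, with log2 fold changes of -1.11, -1.07 and -1.11. KNG1 and PLG differed from each other by 0.311, which put PLG at place 12 for KNG1 and KNG1 at place 11 for PLG. These genes were found by their likeness over the same 6 libraries, which fall into groups of 3, so their fold changes follow from how they were found.

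**Figure D5:**
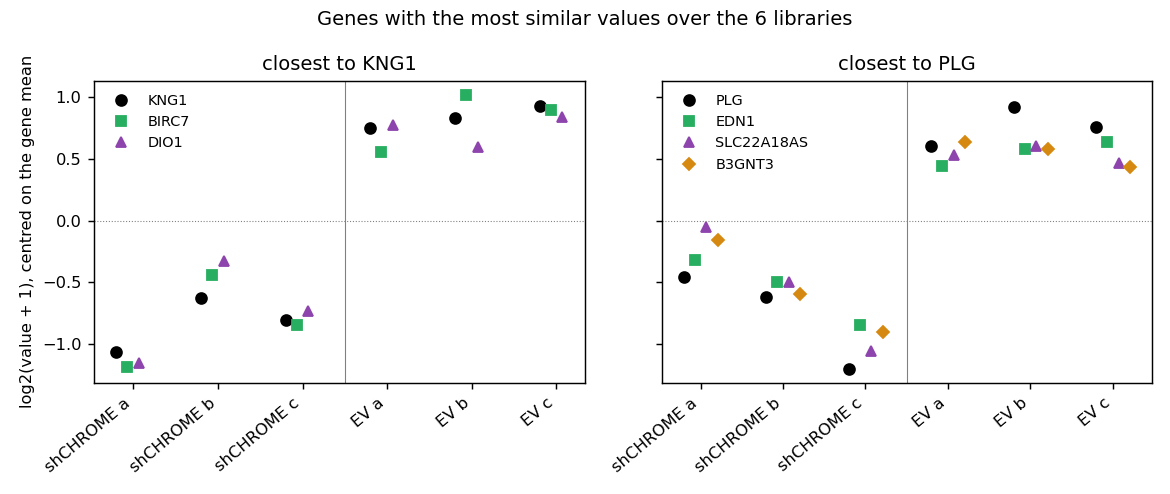
Log2(value + 1) centred on each gene's mean over the 6 libraries (y axis) for KNG1 and its 2 most similar genes (left) and for PLG and its 3 most similar genes (right), by library (x axis, shCHROME left of EV). Points of 1 library are set side by side. KNG1 and the genes like it are lowest in shCHROME replicate a, at -1.07 for KNG1, and PLG and the genes like it in shCHROME replicate c, at -1.21 for PLG.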

How the data were processed

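Total RNA libraries were made with an Illumina TruSeq kit and read in pairs, per the labels' protocols. The submitters' processing notes name the build hg19 and the tools STAR (2.5), featureCounts (1.5.2) and DESeq2 (listed as 3.4); annotation and strand setting are not given in the sources used here. The authors deposited a never-negative signal, read counts divided by a size factor ("normalized counts" here), with their own log2 fold changes and p-values per gene.

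From 24656 rows, 1288 repeated rows were dropped. Whole reads were recovered within 0.01 reads for 100% of values per library. The test was limma (version 3.58.1, trend on mean level) applied to log2(value + 1), comparing the groups with no covariate, on 14598 genes kept by filterByExpr of edgeR 4.0.16 (minimum count 10), with Benjamini-Hochberg adjustment. The log2(value + 1) scale understates changes of low genes. The limma and edgeR steps were checked on simulated data with known changes. edgeR and DESeq2 1.42.0 on recovered reads, other scalings, filters, a pseudocount of 0.1, a replicate block and left-out libraries were alternatives. RPKM used the union of GENCODE release 29 exons, which need not be the authors' annotation.

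The members, lists and motifs were chosen with earlier results of these data known. Named genes were all members; per role, up to 4 called genes, filled to 2 with the uncalled genes of highest mean normalized count in EV, not scaled to length; the 3 genes nearest to KNG1 and PLG in profile; and the flanking genes of KNG1, KLKB1 and PLG. Other genes named were chosen after their values were seen. A pathway gene, a marker, a motif and a gene near KNG1 in profile are not reported here. Replicates differed by more than sampling noise (chi-square per degree of freedom from 5.69 to 17.01).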

Additional observations from a re-analysis of the deposited data

How the results depend on the processing

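KNG1 and PLG were called lower in all 16 alternatives. With 1 library left out, 2 to 3 members were called lower and 0 to 1 higher: CPB2 joined without shCHROME replicate c and PLAT without shCHROME replicate a. The pathway genes called lower were 5 with no filter on low counts, where HRG joined, and 4 to 7 with 1 library left out, and those called higher 0 to 1. Those called higher were 1 with DESeq2, 1 with upper quartile scaling and 2 with library totals. Over all genes, 599 to 1051 were called lower and 245 to 528 higher with 1 library left out, both fewest without shCHROME replicate c and below the full count by over 1.5 times also without EV replicate a (635 and 297) or c (649 and 323). In all, 936 were called higher with library totals, which moved the median log2 fold change of all genes to 0.06. With the replicate block, 349 genes were called higher, and 2 members lower and 0 higher. The replicate letters gave no sign of pairing the libraries: same-letter deviations correlated at -0.047, -0.091 and 0.044, and shCHROME replicate a correlated best with EV replicate b (0.129). The labels do not say what the letters mean. KLKB1 and PLAT could not be fitted with the filter of 1 CPM, which they do not pass. KLKB1, F12, PLAT, PLAU, PLAUR and HRG rest on at most 193 reads per group, which limits the precision of their values. The same limit holds for PLG in shCHROME, with 179 reads over the 3 libraries, against 513 in EV.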
